A study of Mus musculus with 16 samples.

Results

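Matrix metalloproteinases, their tissue inhibitors (TIMPs) and the related protease ADAM8 were examined in cultured mouse macrophages at the level of RNA. The set was chosen by name, but with earlier results of these data known. It holds Mmp8, Mmp9, Mmp12, Mmp13, Mmp14, Mmp19, Timp1, Timp2, Timp3 and Adam8, which are 10 of the 54838 gene identifiers counted. The cells were bone marrow-derived macrophages grown in medium conditioned by L929 cells and then rested in medium without it. Every group, controls included, carried the Apoe-null genotype B6.129P2-Apoetm1Unc/J on the strain labelled C57BL/6J, so no group had normal apolipoprotein E. Cells of the TMP195+TNFα group received 5 µM TMP195, an inhibitor of class IIa histone deacetylases, for 1 h and then TNFα at 50 ng/ml for 24 h. Cells of the TPCA-1+TNFα group received 500 nM TPCA-1, an inhibitor of the kinase IKK2, for 1 h before the same TNFα. The TNFα group received the cytokine alone for 24 h, and the DMSO group is the control. Each group holds 4 libraries, and the title of the study concerns HDAC9 and the IKK kinases in vascular inflammation. Age, sex and the number of animals behind the libraries are not given in the labels used here, nor whether the cells given TNFα alone also received DMSO.

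Matrix metalloproteinases are zinc-dependent proteases, most of them secreted as inactive precursors, that cleave collagens, elastin and other proteins of the extracellular matrix. TIMPs bind the active site of these enzymes and block it. In atherosclerotic plaques macrophages are a main source of several of them, and the balance between protease and inhibitor is studied there as a determinant of how well the fibrous cap holds.

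The libraries held 7.49 to 31.6 counted reads in units of 1e6. The library TPCA-1+TNFα 2 stood apart, with the fewest counted reads and an unmapped share of 44.0%, where the other 15 ranged over 4.0% to 7.11%. For the tested genes of the set, each comparison with its group is therefore also given without it. Results for markers and the other lists are given with it only. Levels are counts per 1e6 counted reads (CPM), and a floor of 3 counts came to 0.0949 to 0.401 CPM. A change is a log2 fold change ± SE from edgeR's quasi-likelihood test on 4 libraries against 4, called at a Benjamini-Hochberg adjusted p under 0.05 over 12612 genes. All 10 macrophage markers, among them Adgre1, Csf1r and Cd68, were measured well above the floor, but several changed. In TNFα against DMSO 1 was called higher and 4 lower (10.9% and 12.4% of all genes). With TMP195 against TNFα 2 were lower (3%), and with TPCA-1 against TNFα 2 were higher and 4 lower (9.67% and 9.72%). In the TMP195 comparison the alternative tool DESeq2 called 6 of the 10, and 7 had an unadjusted p under 0.05 by edgeR. DESeq2 also called more of all genes there, as given at the end. The summed level of the 10 was 13257 to 18181 CPM in TMP195+TNFα and 13498 to 21320 CPM in TPCA-1+TNFα. It was 18227 to 26000.1 CPM in TNFα and 17335 to 26381 CPM in DMSO.

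Of the 10 genes, 9 passed the filter on low counts. The exception was Timp3 (ENSMUSG00000020044, GRCm38 chromosome 10, 86300372 to 86349506), the TIMP that is held in the matrix and also inhibits ADAM17. Timp3 had 0 reads in 15 of the 16 libraries and 1 read in the other, TPCA-1+TNFα 4, so it was not detectable above the floor in any group. Counted per length (reads per kb of exon and 1e6 counted reads), the highest RNA levels belonged to Mmp12, Timp2 and Adam8. In TNFα, Mmp12 averaged 103 ± 21.5, Adam8 45.4 ± 8.57, Timp2 31.4 ± 0.747, Mmp9 28.3 ± 7.26 and Mmp14 22.2 ± 4.09 (SD, n = 4). In DMSO, the same measure gave 116 ± 28.4 for Mmp12, 109.8 ± 15.1 for Timp2 and 88.0 ± 12.7 for Adam8, while Mmp14 averaged 6.85 ± 1.87 and Mmp9 1.55 ± 0.67. In CPM the DMSO ranges of Mmp12 (627 to 1108) and Timp2 (345 to 479) did not overlap. Per length they overlapped, where the divisor is all annotated exon bases, 7237 for Mmp12 and 3896 for Timp2. In every group the lowest of the 9 was Timp1, at 0.722 ± 0.258 in TMP195+TNFα, 0.320 ± 0.114 in TPCA-1+TNFα, 0.382 ± 0.198 in TNFα and 0.960 ± 0.181 in DMSO.

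**Figure D1:**
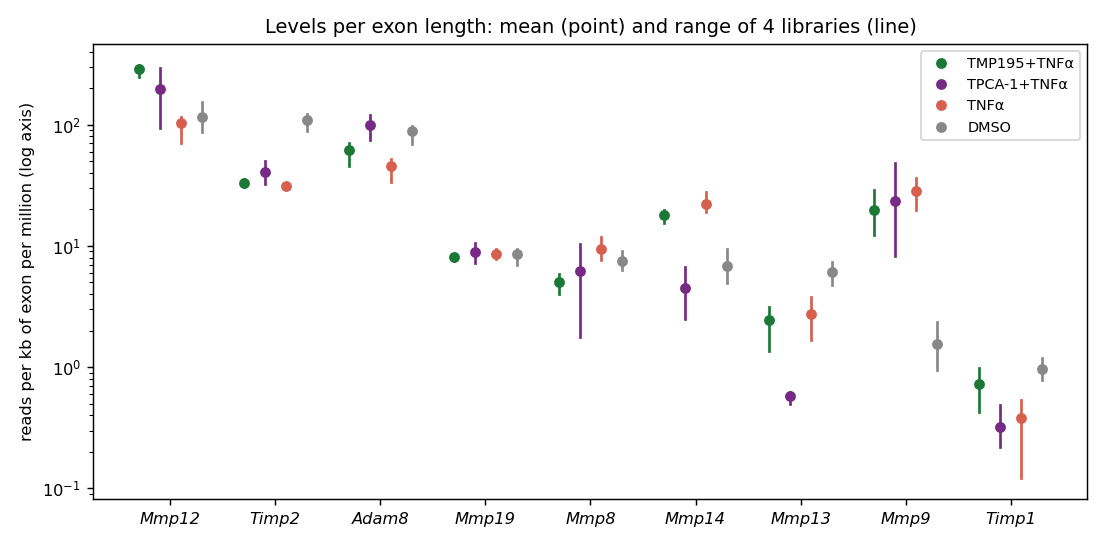
Level per length of each gene in the 4 groups, in reads per kb of exon and 1e6 counted reads on a log axis; points are group means and lines the range of 4 libraries. Mmp12 lies highest in TMP195+TNFα, at a mean of 287, and the mean of Timp1 is under 1 in all 4 groups.

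The genes Mmp8, Mmp12 and Mmp13 lie in a cluster on chromosome 9. GENCODE places 10 Mmp genes between positions 7272514 and 7699585 of GRCm38, in the order Mmp13, Mmp12, Mmp1b, Mmp3, Mmp1a, Mmp10, Mmp8, Mmp27, Mmp20 and Mmp7. Of these, 5 were tested, and the other 5 had at most 6 reads in any library. The 3' end of Mmp12 overlaps that of Mmp1b on the opposite strand. Counting here was by strand, and Mmp1b had 2 reads in all libraries together.

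RefSeq (GRCm38.p6) promoters, from 250 bases before to 50 after the annotated start, were available for 8 of the 10 genes. Those of Mmp13, Mmp12, Mmp14 and Adam8 are shown because these genes passed the threshold in a comparison of an inhibitor group with TNFα alone. Capitals mark matches, on either strand, to the AP-1 motif TGANTCA, the NF-κB consensus, the MEF2 consensus and the TATA motif TATAAA, and each sequence reads 5′ to 3′ in the direction of the gene.
Mmp13, chr9:7272264-7272563, plus strand: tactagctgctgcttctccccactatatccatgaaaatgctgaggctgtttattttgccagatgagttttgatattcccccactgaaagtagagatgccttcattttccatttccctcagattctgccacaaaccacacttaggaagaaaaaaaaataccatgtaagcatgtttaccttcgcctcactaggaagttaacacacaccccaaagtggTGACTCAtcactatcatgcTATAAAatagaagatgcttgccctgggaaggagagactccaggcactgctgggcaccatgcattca
Mmp12 start 1, chr9:7344147-7344446, plus strand: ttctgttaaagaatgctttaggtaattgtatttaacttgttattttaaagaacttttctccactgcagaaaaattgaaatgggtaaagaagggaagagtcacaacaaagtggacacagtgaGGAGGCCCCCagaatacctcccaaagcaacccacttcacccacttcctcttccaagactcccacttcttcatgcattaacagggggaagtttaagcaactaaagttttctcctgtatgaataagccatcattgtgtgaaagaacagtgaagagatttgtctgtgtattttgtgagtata
Mmp12 start 2, chr9:7347124-7347423, plus strand: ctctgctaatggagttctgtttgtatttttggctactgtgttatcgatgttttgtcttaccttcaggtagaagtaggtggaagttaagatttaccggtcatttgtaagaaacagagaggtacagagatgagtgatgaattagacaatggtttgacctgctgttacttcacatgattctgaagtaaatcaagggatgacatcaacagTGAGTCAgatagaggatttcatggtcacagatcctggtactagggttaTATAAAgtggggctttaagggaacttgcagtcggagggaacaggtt
Mmp14, chr14:54431348-54431647, plus strand: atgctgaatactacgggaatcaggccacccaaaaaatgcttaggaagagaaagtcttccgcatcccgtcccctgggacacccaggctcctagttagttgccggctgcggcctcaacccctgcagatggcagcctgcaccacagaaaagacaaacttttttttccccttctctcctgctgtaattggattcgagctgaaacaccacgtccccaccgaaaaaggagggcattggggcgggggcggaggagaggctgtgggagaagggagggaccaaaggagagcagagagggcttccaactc
Adam8, chr7:139992513-139992812, minus strand: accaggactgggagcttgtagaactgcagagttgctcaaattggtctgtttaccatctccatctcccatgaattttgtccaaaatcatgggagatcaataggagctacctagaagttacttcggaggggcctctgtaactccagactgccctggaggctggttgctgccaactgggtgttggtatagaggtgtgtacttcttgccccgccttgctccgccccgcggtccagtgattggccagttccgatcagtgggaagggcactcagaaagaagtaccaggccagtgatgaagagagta
The Mmp13 window holds TGANTCA with its first base at position -35 from the start and TATAAA at -16. The second Mmp12 start has TGANTCA at -44 and TATAAA at 5, and the first has an NF-κB consensus match on the opposite strand at -129. No match to any of the 4 motifs lies in the Mmp14, Adam8, Timp1, Timp2 or Timp3 window, and Mmp8 has TATAAA on the opposite strand at -3. Among 32851 mouse promoters of this length, 7.81% hold TGANTCA, 8.46% the NF-κB consensus, 3.19% the MEF2 consensus and 13.6% TATAAA. These are letter matches, with no measurement of binding.

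The first comparison asks what TNFα alone changed. TNFα raised Mmp9 and Mmp14 and lowered Timp2, Mmp13, Adam8 and Timp1, so the largest rise was in a gelatinase gene while both detected inhibitor genes fell. Mmp8, Mmp12 and Mmp19 did not pass the threshold. Called genes were thus 6 of the 9 tested, 2 higher and 4 lower, where 23.4% of all genes tested were called (10.9% higher and 12.4% lower). Values did not overlap between the groups for the same 6 genes, as for 27% of all genes. The median log2 change was -0.10 over the 9 genes and 0.0018 over all genes.

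Mmp9 (ENSMUSG00000017737, GRCm38 chromosome 2, 164940780 to 164955850) encodes gelatinase B, which degrades denatured collagen and the collagen of basement membranes. In order of replicate number it had 89.7, 70.4, 129 and 112 CPM in TNFα, against 3.71, 3.36, 8.33 and 6.54 CPM in DMSO. Every TNFα library lay far above every DMSO library, and replicate 3 was the highest within each group. The difference was 4.26 ± 0.49 on the log2 scale, or 19.1-fold (adjusted p = 5.71e-06).

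Mmp14 (ENSMUSG00000000957, chromosome 14, 54431612 to 54445364) encodes MT1-MMP, a membrane-anchored collagenase that also activates other metalloproteinases. It had 118, 113, 133 and 167 CPM in TNFα, against 39.9, 37.7, 29.5 and 56.1 CPM in DMSO. Replicate 4 was the highest of each group, and the groups did not overlap. The rise was 1.77 ± 0.24 on the log2 scale, or 3.40-fold (adjusted p = 3.43e-05). Mmp2, which encodes a gelatinase precursor that MT1-MMP activates with the help of TIMP2, was close to absent, with 25 reads in all 16 libraries together.

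Timp2 (ENSMUSG00000017466, chromosome 11, 118301069 to 118355740) had 122, 118, 125 and 124 CPM in TNFα, against 433, 345, 479 and 456 CPM in DMSO. The TNFα libraries lay within a few CPM of each other, and all were below every DMSO library. The fall had the smallest SE of the 6 called changes, at -1.74 ± 0.14 on the log2 scale (3.34-fold lower, adjusted p = 9.34e-08). Cep295nl overlaps Timp2 on the same strand, so the count is less certain where the genes share exons. Timp1 (ENSMUSG00000001131, chromosome X, 20870166 to 20874735), the soluble inhibitor that many cells induce under inflammation, was scarcely detected here. It had 2, 6, 15 and 10 reads in TNFα, against 13, 15, 23 and 17 reads in DMSO. These are 0.108, 0.295, 0.475 and 0.478 CPM in TNFα and 0.690, 0.764, 1.05 and 0.904 CPM in DMSO, which do not overlap. The change of -1.20 ± 0.37 (adjusted p = 0.0249) passed the threshold, but it no longer did so without TNFα 1 (0.0677), TNFα 2 (0.0671), DMSO 3 (0.0819) or DMSO 4 (0.0518), or without the filter on low counts (0.0597). Fibroblasts are a rich source of TIMP1, and 8 fibroblast markers summed to 0.146 to 0.436 CPM in TMP195+TNFα, 0 to 0.341 CPM in TPCA-1+TNFα, 0.269 to 0.573 CPM in TNFα and 0.0509 to 0.159 CPM in DMSO, with Col3a1 at 0 in every library.

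Mmp13 (ENSMUSG00000050578, chromosome 9, 7272514 to 7283331) encodes the main interstitial collagenase of mice. It had 8.40, 6.05, 10.2 and 4.49 CPM in TNFα, against 17.1, 19.6, 16.3 and 12.6 CPM in DMSO. The groups did not overlap, and the change was -1.09 ± 0.25 on the log2 scale (2.13-fold lower, adjusted p = 0.00404). Adam8 (ENSMUSG00000025473, chromosome 7, 139978932 to 139992562) encodes a membrane protease of leukocytes that sheds cell surface proteins. It had 155, 210.5, 244 and 233 CPM in TNFα, against 322, 426, 432 and 453 CPM in DMSO. Replicate 1 was the lowest of each group, the groups did not overlap, and the change was -0.89 ± 0.17 (1.85-fold lower, adjusted p = 0.000734).

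Mmp12 (ENSMUSG00000049723, chromosome 9, 7344381 to 7369499) encodes macrophage elastase. It had 814, 838, 820.2 and 514 CPM in TNFα, against 869, 1108, 748 and 627 CPM in DMSO. The groups overlapped, and the difference was -0.10 ± 0.29 (95% interval -0.66 to 0.46, adjusted p = 0.863). Mmp8 (ENSMUSG00000005800, chromosome 9, 7558456 to 7568485), the neutrophil collagenase, had 18.6 to 28.6 CPM in TNFα and 15.3 to 22.2 CPM in DMSO, a difference of 0.41 ± 0.37 (adjusted p = 0.499). Mmp19 (ENSMUSG00000025355, chromosome 10, 128790910 to 128800824), a secreted protease with basement membrane substrates, was the steadiest of the set, with 24.5 to 37.3 CPM over all 16 libraries. Its difference was 0.08 ± 0.12 (95% interval -0.17 to 0.32, adjusted p = 0.732).

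**Figure D2:**
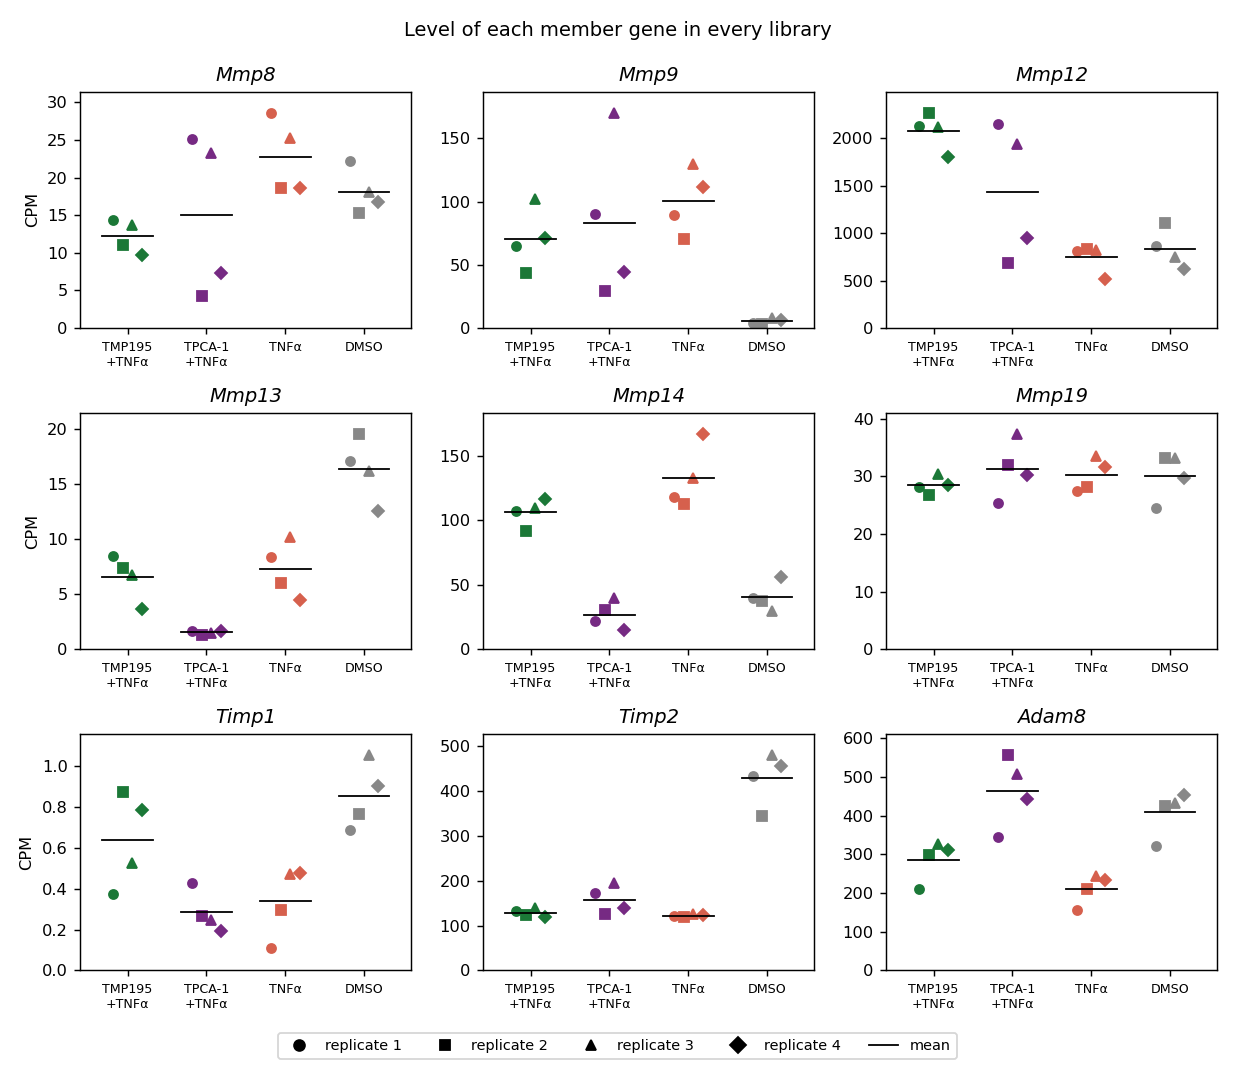
Level of the 9 tested genes in every library, in CPM on a linear axis that starts at 0; points are libraries and bars the mean of 4. The TNFα points of Mmp9 and Mmp14 lie above all DMSO points, those of Timp2, Mmp13, Adam8 and Timp1 below them, and the TPCA-1+TNFα points of Mmp8, Mmp9 and Mmp12 are spread widely.

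Mmp8 and Mmp9 are also abundant in neutrophils, so markers of those cells were measured. The 12 neutrophil markers summed to 24.8 to 48.0 CPM in TMP195+TNFα, 13.8 to 41.4 CPM in TPCA-1+TNFα, 46.6 to 85.0 CPM in TNFα and 0.958 to 2.34 CPM in DMSO. S100a8, which stimulated macrophages also express, was the single marker that passed the filter and made up nearly all of that sum (5.38 ± 0.40 in TNFα against DMSO). Of the 12, 6 had 0 reads in all 16 libraries, the granule and surface genes Ly6g, Elane, Ctsg, Ngp and Retnlg and also S100a9, whose protein pairs with that of S100a8. S100a9 was thus listed at 0 beside 11118 reads of S100a8 in all libraries together, and its 0 is not read as absence. The granule gene Camp, too low to test, had 13 reads in TMP195+TNFα, 8 in TPCA-1+TNFα, 39 in TNFα and 2 in DMSO, with every TNFα library above every library of the other 3 groups in CPM. Mpo, Prtn3, Ltf and Cxcr2 had 2 to 4 reads each in all libraries together. The part of neutrophils in the Mmp8 and Mmp9 results was not tested. In bulk RNA, fewer cells of a type and less RNA per cell cannot be told apart.

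The comparison of TMP195+TNFα with TNFα alone asks what inhibition of class IIa histone deacetylases added. TMP195 raised Mmp12, the macrophage elastase gene. In the model without a replicate block, Mmp12 was the one of the 9 tested genes that passed the threshold. That is 1 of 9, higher, where 5.95% of all genes were called (2.95% higher and 3% lower). With a block on replicate number Mmp8 and Adam8 were called in addition, where 13.5% of all genes were called. Values did not overlap for 2 of the 9, Mmp12 and Mmp8, against 15% of all genes. The median log2 change was -0.14 over the 9 genes and 0.015 over all genes.

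Mmp12 had 2131, 2262, 2118 and 1803 CPM in TMP195+TNFα, against 514 to 838 CPM in TNFα. The TMP195 libraries lay close together and all were above every TNFα library and every DMSO library. The rise over TNFα was 1.42 ± 0.29 on the log2 scale, or 2.68-fold (adjusted p = 0.00743). It was called in each of the fits that left out 1 library. Among 9 osteoclast markers 6 were tested, and 2 rose in the same comparison, where 2.95% of all genes were called higher. These were Atp6v0d2, by 1.48 ± 0.31, and Itgb3, by 2.06 ± 0.38. Ctsk (0.81), Dcstamp (0.22), Acp5 (-0.05) and Nfatc1 (-0.08) were not called. Atp6v0d2 averaged 59.8 CPM in TMP195+TNFα, 20.6 CPM in TNFα and 105.9 CPM in DMSO. The 9 summed to 124 to 139 CPM in TMP195+TNFα, 105 to 131 CPM in TPCA-1+TNFα, 83.4 to 89.0 CPM in TNFα and 159.9 to 218 CPM in DMSO, with Calcr at 0, and their part in the Mmp12 result was not tested.

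Mmp8 had 14.4, 11.0, 13.6 and 9.73 CPM in TMP195+TNFα, against 28.6, 18.6, 25.3 and 18.6 CPM in TNFα. All TMP195 libraries were below all TNFα libraries, but the change of -0.96 ± 0.37 missed the threshold (adjusted p = 0.155). Blocking on replicate number gave -0.94, which passed (adjusted p = 0.0191). Adam8 had 209.8, 297, 326 and 312 CPM in TMP195+TNFα, against 155, 210.5, 244 and 233 CPM in TNFα, and was higher in TMP195 within each of the 4 replicate numbers. Its groups overlapped through replicate 1, and the change of 0.39 ± 0.17 missed the threshold (adjusted p = 0.208) but passed with the replicate block (0.39, adjusted p = 0.00649). The block therefore gave 3 called genes in place of 1, where it called 13.5% of all genes. Same-numbered libraries of these groups deviated together.

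Mmp9, Mmp14 and Timp2, with the largest changes under TNFα, showed no called change with TMP195. Mmp9 had 64.6, 43.8, 102 and 71.2 CPM in TMP195+TNFα, a change of -0.56 ± 0.42 whose 95% interval ran from -1.38 to 0.26 (adjusted p = 0.565). Mmp14 had 107, 91.5, 109.9 and 117 CPM, with a change of -0.37 ± 0.24 (95% interval -0.83 to 0.10, adjusted p = 0.470). Timp2 had 132, 123, 139 and 119.5 CPM, with a change of 0.02 ± 0.13 (95% interval -0.24 to 0.28, adjusted p = 0.969). All 3 intervals include 0, and the one for Mmp9 is the widest. Mmp9 and Mmp14 were lower with TMP195 within each of the 4 replicate numbers, and with the replicate block they were at -0.60 ± 0.23 (adjusted p = 0.0980) and -0.36 ± 0.23 (adjusted p = 0.377). Mmp13 had 3.62 to 8.44 CPM (-0.22 ± 0.26), Mmp19 26.7 to 30.4 CPM (-0.14 ± 0.12) and Timp1 7 to 18 reads (0.81 ± 0.38, adjusted p = 0.258), higher with TMP195 in each of the 4 numbers.

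The comparison of TPCA-1+TNFα with TNFα alone asks what inhibition of IKK2 added. TPCA-1 lowered Mmp13 and Mmp14 and raised Adam8 and, narrowly, Mmp12. Mmp9, the gene with the largest rise under TNFα, did not pass the threshold. In all, 4 of the 9 tested genes were called, 2 higher and 2 lower, where 19.4% of all genes were called (9.67% higher and 9.72% lower). Values did not overlap for 4 of the 9, Mmp13, Mmp14, Adam8 and Timp2, against 18.1% of all genes. The median log2 change was -0.28 over the 9 genes and 0.022 over all genes. Without TPCA-1+TNFα 2 the same 4 genes were called, with Timp2 in addition, where 15.3% of all genes were called.

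Mmp14 had 21.6, 30.3, 40.0 and 14.9 CPM in TPCA-1+TNFα, against 118, 113, 133 and 167 CPM in TNFα. Every TPCA-1 library lay below every TNFα library and within or below the DMSO values of 29.5 to 56.1 CPM, with replicate 4 the lowest. The change was -2.33 ± 0.25 on the log2 scale (5.04-fold lower, adjusted p = 4.68e-06), and -2.40 ± 0.28 without TPCA-1+TNFα 2.

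Mmp13 had 1.67, 1.34, 1.52 and 1.66 CPM in TPCA-1+TNFα, from 35, 10, 31 and 34 reads. The 4 libraries were close together, all below every TNFα library (4.49 to 10.2 CPM) and every DMSO library (12.6 to 19.6 CPM). The change against TNFα was -2.24 ± 0.30 (4.73-fold lower, adjusted p = 4.26e-05), and -2.21 ± 0.33 without TPCA-1+TNFα 2. Mmp13 was thus lower in TNFα than in DMSO and lower again in TPCA-1+TNFα, where its level was 10.1-fold lower than in DMSO (-3.33 ± 0.30, adjusted p = 3.43e-07).

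Adam8 had 346, 555, 506 and 443 CPM in TPCA-1+TNFα, against 155, 210.5, 244 and 233 CPM in TNFα. All TPCA-1 libraries were above all TNFα libraries, replicate 1 was again the lowest, and the range overlapped that of DMSO (322 to 453 CPM). The rise was 1.12 ± 0.17 (2.17-fold, adjusted p = 0.000162), and 1.01 ± 0.17 without TPCA-1+TNFα 2.

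Mmp12, Mmp9 and Mmp8 varied widely among the TPCA-1+TNFα libraries. Mmp12 had 2143, 683, 1934 and 952 CPM there, against 514 to 838 CPM in TNFα, so replicates 1 and 3 were near the TMP195 values while replicate 2 lay within the TNFα range. Its rise of 0.92 ± 0.29 passed narrowly (1.89-fold, adjusted p = 0.0331). It was not called without TNFα 1, 2, 3 or 4 or without TPCA-1+TNFα 1 or 3 (adjusted p = 0.0591 to 0.104), nor in a fit of these 2 groups alone (0.0923), and without TPCA-1+TNFα 2 it was 1.14 ± 0.25 (adjusted p = 0.0048).

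Mmp9 had 89.8, 29.0, 169.8 and 44.5 CPM in TPCA-1+TNFα, against 89.7, 70.4, 129 and 112 CPM in TNFα, with replicates 2 and 4 below the TNFα range and replicate 3 above it. The change of -0.28 ± 0.42 had a 95% interval of -1.1 to 0.54 (adjusted p = 0.668). Leaving out each library in turn, it ran from -0.89 to -0.011, the last without TPCA-1+TNFα 2. Mmp8 had 25.2, 4.27, 23.2 and 7.36 CPM, with the same replicates 2 and 4 low, and a change of -0.58 ± 0.37 (adjusted p = 0.285), which ran from -0.95 to -0.32 with each library left out, the last again without TPCA-1+TNFα 2. Replicate 2 was the library with many unmapped reads, whereas replicate 4 had 5.76% unmapped and 20.5 counted reads in units of 1e6. The part of library quality in this spread was not tested.

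Timp2 had 172, 126, 195 and 138 CPM in TPCA-1+TNFα, all above the 118 to 125 CPM of TNFα and far below DMSO. The change of 0.35 ± 0.13 missed the threshold (adjusted p = 0.0745) and passed it without TPCA-1+TNFα 2 (0.44 ± 0.13, adjusted p = 0.0279). Timp1 had 9, 2, 5 and 4 reads, with a change of -0.30 ± 0.44 (adjusted p = 0.658). Mmp19 had 25.4 to 37.3 CPM, with a change of 0.03 ± 0.12 (95% interval -0.22 to 0.27, adjusted p = 0.906). Without TPCA-1+TNFα 2 Timp1 was at -0.29 ± 0.46 and Mmp19 at 0.0062 ± 0.13.

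**Figure D3:**
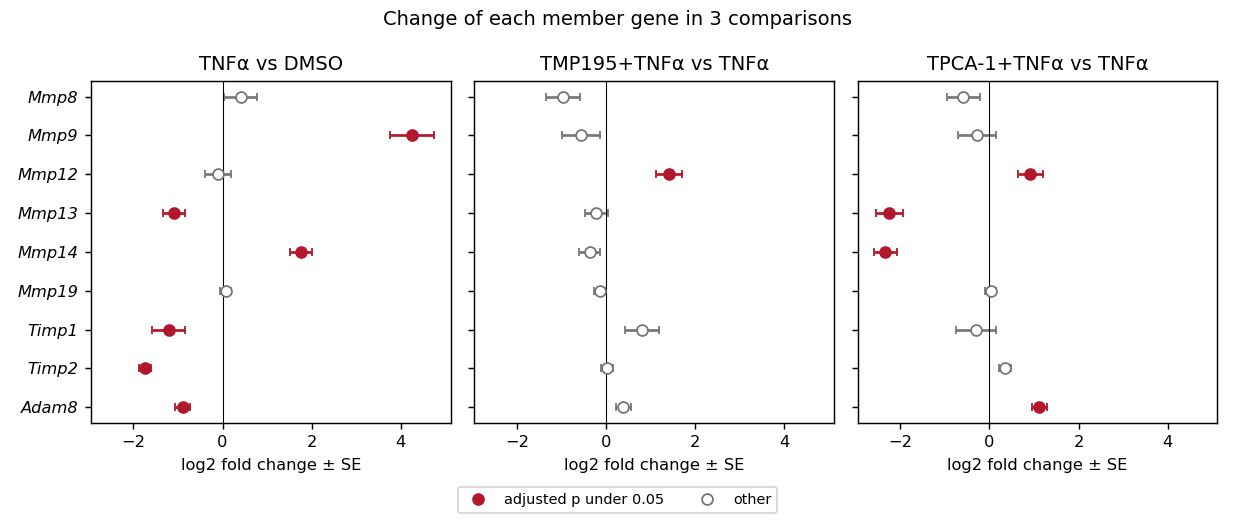
Log2 fold change ± SE of the 9 tested genes in TNFα against DMSO and in each inhibitor group against TNFα, 4 libraries against 4; red marks an adjusted p under 0.05. Mmp14 lies at 1.77 with TNFα and at -2.33 with TPCA-1, and with TMP195 the red point is Mmp12 at 1.42.

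The direct comparison of TMP195+TNFα with TPCA-1+TNFα tests where the 2 inhibitors differed, each at its single dose. Mmp13 and Mmp14 were higher, and Adam8 lower, with TMP195 than with TPCA-1. These are 3 of 9 genes, where 25.7% of all genes were called, and the same 3 did not overlap, against 23.2% of all genes. Mmp13 averaged 6.56 ± 2.08 CPM with TMP195 and 1.54 ± 0.155 CPM with TPCA-1 (SD, n = 4), a difference of 2.03 ± 0.30 on the log2 scale (adjusted p = 9.3e-05). Mmp14 averaged 106 ± 10.7 CPM with TMP195 and 26.7 ± 10.9 CPM with TPCA-1, a difference of 1.97 ± 0.25 (adjusted p = 2.03e-05). Adam8 averaged 286 ± 52.3 CPM with TMP195 and 462 ± 90.4 CPM with TPCA-1, a difference of -0.73 ± 0.17 (adjusted p = 0.00405).

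Mmp12, called higher with each inhibitor against TNFα, was not shown to differ between them: the difference was 0.50 ± 0.29, with a 95% interval of -0.06 to 1.06 (adjusted p = 0.208). Mmp9 differed by -0.28 ± 0.42 (95% interval -1.1 to 0.54) and Mmp19 by -0.17 ± 0.12. Timp1 was at 1.12 ± 0.41 (adjusted p = 0.0571) and Timp2 at -0.33 ± 0.13 (adjusted p = 0.0774). Without TPCA-1+TNFα 1 the count became 5, with Mmp12 at 0.78 (adjusted p = 0.0472) and Timp1 at 1.45 (adjusted p = 0.0304) added, where 30.4% of all genes were called. Without TPCA-1+TNFα 2 Timp2 passed at -0.42 (adjusted p = 0.0247), and the calls held for Mmp13 (1.99), Mmp14 (2.03) and Adam8 (-0.63, adjusted p = 0.0152). The genes not called were then Mmp12 at 0.27, Mmp9 at -0.56, Mmp8 at -0.65, Mmp19 at -0.15 and Timp1 at 1.103 (adjusted p = 0.0858). Over all genes the fits that left out 1 library gave 2463 to 3888 calls, and the share without TPCA-1+TNFα 2 is not given.

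The inhibitor groups were also set against DMSO. These comparisons share the DMSO libraries with each other and with the first comparison. In TMP195+TNFα, 6 of 9 genes were called, 3 higher and 3 lower, where 27.5% of all genes were called, and values did not overlap for 6, Mmp8 among them, against 30% of all genes. Mmp9 was 3.70 ± 0.48 higher on the log2 scale (adjusted p = 1.61e-05), Mmp14 1.40 ± 0.24 (adjusted p = 0.000275) and Mmp12 1.33 ± 0.29 (adjusted p = 0.00206). Timp2 was at -1.72 ± 0.14 (adjusted p = 1.08e-07), Mmp13 at -1.30 ± 0.26 (adjusted p = 0.000877) and Adam8 at -0.50 ± 0.17 (adjusted p = 0.0342). The Adam8 groups overlapped, and its call was lost without TMP195+TNFα 1 or 2 or DMSO 2, 3 or 4 (adjusted p = 0.0636 to 0.108).

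In TPCA-1+TNFα against DMSO, 5 of 9 genes were called, 2 higher and 3 lower, where 30.3% of all genes were called, and values did not overlap for 4 (Mmp9, Mmp13, Timp1 and Timp2), against 26% of all genes. Mmp9 remained far above DMSO, at 3.98 ± 0.49 (15.8-fold, adjusted p = 9.97e-06), and Timp2 below it, at -1.39 ± 0.14 (adjusted p = 8.43e-07). Mmp14 was at -0.57 ± 0.24 and missed the threshold (adjusted p = 0.0889), although it passed without TPCA-1+TNFα 3 (-0.85, adjusted p = 0.0122). Timp1 was at -1.50 ± 0.40 (adjusted p = 0.00921). Mmp12 was at 0.82 ± 0.29 (adjusted p = 0.0382), a call lost without DMSO 1, 3 or 4 or TPCA-1+TNFα 1 or 3 (adjusted p = 0.0712 to 0.133) and in a fit of these 2 groups alone (0.0796). Adam8 was at 0.23 ± 0.17, with a 95% interval of -0.10 to 0.56 (adjusted p = 0.318). Over all genes this comparison gave 3820 calls, and 2933 to 4492 in the fits that left out 1 library. Among those fits, the one without TPCA-1+TNFα 2 has no share of all genes given here. In it the same 5 genes were called, with Mmp9 at 4.25, Mmp12 at 1.05 (adjusted p = 0.0048), Mmp13 at -3.29, Timp1 at -1.49 (adjusted p = 0.0168) and Timp2 at -1.30. Mmp14 was then at -0.63 (adjusted p = 0.1), Adam8 at 0.13, Mmp19 at 0.085 and Mmp8 at 0.0906.

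The order of the 4 groups differed from gene to gene. Mmp14 ran from TNFα through TMP195+TNFα to DMSO and TPCA-1+TNFα, and of the steps between neighbours the one from TMP195+TNFα to DMSO was called. Mmp13 was highest in DMSO, followed by TNFα and TMP195+TNFα, which did not differ beyond their spread, and lowest in TPCA-1+TNFα, with both outer steps called. Mmp12 was highest in TMP195+TNFα and lowest in TNFα, and the step called was that between TPCA-1+TNFα and DMSO. Mmp9 was lowest in DMSO, and no step among the other 3 groups was called. Adam8 ran from TPCA-1+TNFα and DMSO, which did not differ beyond their spread, to TMP195+TNFα and TNFα, and the step called was that from DMSO to TMP195+TNFα. Timp2 was highest in DMSO, and the step called was that to TPCA-1+TNFα. Its next step, to TMP195+TNFα, missed the threshold, with a 95% interval of -0.59 to -0.07 for TMP195+TNFα against TPCA-1+TNFα. The last, to TNFα, was not called. For Mmp8, Mmp19 and Timp1 no step between neighbouring groups was called.

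Genes most like each member in profile were taken as those with the smallest root mean square difference of mean-centred log2 CPM over the 16 libraries, as a description. Nearest to Mmp14 were Nlrp3 (0.304) and Cmklr1 (0.358), where the median gene differed by 1.1. Nearest to Mmp13 were Fcgr1 (0.315), a gene of the macrophage marker list, and Pde7b (0.335), against a median of 1.27. Timp2 was followed closely by Itga6 (0.151) and Ncaph (0.165, median 0.791), and Gsn (0.212, median 0.574) was among the nearest to Adam8. Mmp9 had looser neighbours in Serinc2 (0.600) and Ptgs2 (0.651, median 1.85), as did Mmp12 in Slc30a1 (0.407) and Maoa (0.417, median 0.785) and Mmp8 in Zc3h11a (0.388) and Polk (0.394, median 0.792). Mmp19, which hardly varied, was nearest to Psmg4 (0.113) and Rab24 (0.121, median 0.348).

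Most other members of the family were not expressed at a level that could be tested. Of 18 further Mmp and Timp genes 4 passed the filter, and TNFα lowered 2 of them, both in the chromosome 9 cluster: Mmp27 and Mmp10. Of all genes, 12.4% were called lower with TNFα. Mmp27, a neighbour of Mmp8, averaged 3.67 ± 0.591 CPM in TMP195+TNFα, 2.15 ± 1.02 CPM in TPCA-1+TNFα, 4.94 ± 1.15 CPM in TNFα and 13.8 ± 1.15 CPM in DMSO (SD, n = 4). It fell by 1.41 ± 0.24 with TNFα (adjusted p = 0.00026) and by a further 1.14 ± 0.26 with TPCA-1 (adjusted p = 0.00516). Mmp10, at 0.505 ± 0.307 CPM in TNFα and 2.01 ± 1.27 CPM in DMSO, was at -1.88 ± 0.52 (adjusted p = 0.0127). With TMP195 against TNFα, edgeR called 0 of the 4, DESeq2 0, and 1 had an unadjusted p under 0.05. The median log2 change of the 4 was -1.1 with TNFα, 0.09 with TMP195 and -0.12 with TPCA-1. Within the cluster TNFα thus lowered Mmp13, Mmp10 and Mmp27, while Mmp12 and Mmp8 were not called.

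Genes that activate, bind or regulate metalloproteinases were counted on a list of 16, of which 12 were tested. With TNFα 6 were higher and 2 lower, against 10.9% and 12.4% of all genes. At a mean of at least 5 CPM, Lcn2, Bmp1 and Thbs1 led. The largest change was that of Serpinb2, a plasminogen activator inhibitor, at 5.66 ± 0.79 (adjusted p = 3.63e-05), with a mean of 2.68 CPM in TNFα and 0.0476 CPM in DMSO. Lcn2 encodes a lipocalin that binds MMP9 and protects it from degradation, and it averaged 10.7 ± 3.08 CPM in TMP195+TNFα, 4.73 ± 1.47 CPM in TPCA-1+TNFα, 19.8 ± 5.71 CPM in TNFα and 1.48 ± 0.284 CPM in DMSO. It was raised by 3.81 ± 0.30 with TNFα and lowered by both inhibitors, at -0.94 ± 0.25 with TMP195 (adjusted p = 0.0334) and -2.08 ± 0.27 with TPCA-1 (adjusted p = 2.96e-05). Bmp1, a procollagen-processing protease, was raised by 3.45 ± 0.24 with TNFα and lowered by TMP195 (-1.51 ± 0.21, adjusted p = 0.000582), but higher with TPCA-1 than with TNFα alone (0.77 ± 0.20, adjusted p = 0.0117). Thbs1, the matrix protein thrombospondin-1, rose by 2.71 ± 0.29 with TNFα. On this list 3 genes were lower with TMP195 by edgeR, against 3% of all genes. DESeq2 called 5 there, and 8 had an unadjusted p under 0.05 by edgeR. The 3% is a share by edgeR after adjustment and is not the background of these counts. DESeq2 also called more of all genes in this comparison, and no share by unadjusted p is given. TPCA-1 gave 2 higher and 3 lower, against 9.67% and 9.72% of all genes. The median log2 change of the 12 was 0.51 with TNFα, -0.19 with TMP195 and 0.07 with TPCA-1.

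For the next 2 lists, the shares of all genes called higher and lower were 10.9% and 12.4% with TNFα. They were 2.95% and 3% with TMP195, and 9.67% and 9.72% with TPCA-1. Among 20 other ADAM and ADAMTS proteases 12 were tested. TNFα gave 4 higher and 2 lower, TMP195 1 higher, and TPCA-1 5 higher and 3 lower, with median log2 changes of 0.04, -0.03 and 0.07 in that order. Of 22 matrix components 7 were tested, with 2 higher and 2 lower in TNFα and 4 lower with TPCA-1. With TMP195, edgeR called 0 of the 7, DESeq2 0, and 1 had an unadjusted p under 0.05. The median log2 change of the 7 was -0.14 with TNFα, 0.29 with TMP195 and -1.0 with TPCA-1. The called fall with TPCA-1 of the largest size at a mean of 5 CPM or more was Agrn, a heparan sulfate proteoglycan of basement membranes, at -1.22 ± 0.18 (adjusted p = 0.000153). Endothelial markers summed to 11.3 to 18.1 CPM in TMP195+TNFα, 19.4 to 45.8 CPM in TPCA-1+TNFα, 7.92 to 12.9 CPM in TNFα and 13.4 to 18.8 CPM in DMSO, with Tek and Emcn at 0. Pecam1, which macrophages can also express, made up most of the rise with TPCA-1 (2.08 ± 0.28). Vwf, the other one tested, averaged 4.77 CPM in TPCA-1+TNFα and 4.51 CPM in TNFα. With TMP195 against TNFα Vwf was called higher (1.07 ± 0.20, adjusted p = 0.00403), while Pecam1 was not called (-0.37 ± 0.28). The part of endothelial cells in the results was not tested. Dendritic cell markers summed to 0.485 to 1.11 CPM in TMP195+TNFα, 0.715 to 2.003 CPM in TPCA-1+TNFα, 0.269 to 0.696 CPM in TNFα and 0.356 to 1.01 CPM in DMSO. Of these 6, Zbtb46 was tested and was higher with TPCA-1 than with TNFα alone (1.67 ± 0.46, adjusted p = 0.0178), Cd209a was at 0, and their part in the results was not tested. Lymphocyte markers summed to 0 to 0.243 CPM in TMP195+TNFα, 0 to 0.534 CPM in TPCA-1+TNFα, 0 to 0.0492 CPM in TNFα and 0.0530 to 0.229 CPM in DMSO.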

How the data were processed

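RNA sequencing measured total RNA of 16 libraries, 4 groups of 4, grouped by the labels. The authors aligned reads with STAR 2.6.1d (mm10 and GRCm38 are named), per the submitters' processing notes, and deposited counts of uniquely mapped reads per gene, without normalization. The fourth column of each file, the strand opposite to the read, was used, since the other held 3.19% to 3.72% of the reads. GENCODE M21 gave symbols and exon lengths for 54809 of 54838 identifiers; the authors' annotation release is not given in the sources used here. Uniquely mapped counts leave reads shared between similar genes out.

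The counts went into edgeR 4.0.16 under R 4.3.3 (TMM normalization, filterByExpr leaving 12612 genes, two-sided quasi-likelihood F test) in 1 model of group means with 6 contrasts, Benjamini-Hochberg adjustment over all genes and a threshold of 0.05. DESeq2 1.42.0, DESeq2 size factors, no filter, unstranded counts, the compared groups alone, a replicate block and leaving out each library were alternatives. On simulated counts for TNFα against DMSO over 12612 genes, 67% of 100 genes changed 2-fold and 100% of 100 changed 4-fold were recovered. The 95% intervals of changes are normal ones from the SE. Floors cover counting error only: without molecular identifiers, PCR copies count as reads. The labels do not say whether replicates are separate animals or cultures, so p-values reflect only how these libraries vary, which may be technical. Replicates differed by more than counting error (chi-square per gene 13.97 to 80.3 over 24 pairs).

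The labels give each group replicates 1 to 4. After removal of group means, the correlation of same-numbered libraries was over 0.1 in all 4 pairs for TNFα with DMSO (0.330 to 0.681), TMP195+TNFα with TNFα (0.375 to 0.675) and TMP195+TNFα with DMSO (0.270 to 0.645), so those were taken as paired by the data, and the block is given where it changed a call. Pairs with TPCA-1+TNFα had correlations down to -0.043 and were not taken as paired. Those of TPCA-1+TNFα 2, the library with many unmapped reads, were -0.043 with TNFα, -0.0066 with TMP195+TNFα and 0.020 with DMSO. That of replicate 4 with TMP195+TNFα was 0.086, and the remaining pairs ran from 0.127 to 0.511.

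The genes and lists were chosen with earlier results of these data known. All 10 genes are named. Of the other lists, up to 3 genes per comparison are named, those with the largest called change at a mean of at least 5 CPM; Mmp10, Mmp27 in TNFα against DMSO, Mmp2, Serpinb2, Bmp1 with TPCA-1 and single markers were chosen after their values were seen. A gene that the rule for similar profiles names is not reported here.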

Additional observations from a re-analysis of the deposited data

Results flagged for a closer look

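Mmp12 had 514 CPM in replicate 4 of TNFα, while the other 3 libraries of that group had 814 to 838 CPM. The gap to the nearest library was 0.925 of the group's whole range, above Dixon's 95% critical value for 4 samples. This was the single case among 36 gene and group combinations, and chance gives about 1 in 20. Without that library the rise of Mmp12 in TMP195+TNFα over TNFα was 1.27 on the log2 scale (adjusted p = 0.0296 by edgeR), and the rise in TPCA-1+TNFα over TNFα was 0.76 (adjusted p = 0.0766).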

How the results depend on the processing

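Over 54 changes of the 9 tested genes and 753 values under alternatives, 700 kept their direction and side of the threshold, 23 lost the call, 16 gained one and 14 turned their sign. No change called in the report turned its sign under any of these alternatives. In TMP195+TNFα against TNFα the number of called genes was 1. It became 2 without the filter and 2 with the compared groups alone (Mmp8 added). With the replicate block it became 3, where 13.5% of all genes were called. For the other settings the share of all genes is not given, so their counts cannot be weighed against it. Leaving out 1 library gave 5 to 6 called genes in TNFα against DMSO, beside 2317 to 2798 calls over all genes. TMP195+TNFα against TNFα gave 1 to 1, beside 446 to 597 over all genes. TPCA-1+TNFα against TNFα gave 3 to 5, beside 1650 to 3313. TMP195+TNFα against TPCA-1+TNFα gave 3 to 5, beside 2463 to 3888. Against DMSO, TMP195+TNFα gave 5 to 6, beside 2907 to 3287, and TPCA-1+TNFα 4 to 5, beside 2933 to 4492. In TMP195+TNFα against TPCA-1+TNFα the count of 5 came without TPCA-1+TNFα 1.

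The turned signs, none of a called change, came from leaving out 1 library, with 1 exception (Mmp19 in TPCA-1+TNFα against TNFα, -0.0071 without the filter). Leaving out each library in turn, the log2 change in TNFα against DMSO ran from -0.0066 (without DMSO 1) to 0.127 for Mmp19 and from -0.212 to 0.064 (without DMSO 2; 0.054 without TNFα 4) for Mmp12. In TMP195+TNFα against TNFα, Timp2 ran from -0.030 to 0.062, below 0 without TMP195+TNFα 1 or 3 or TNFα 2. In TPCA-1+TNFα against TNFα, Mmp19 ran from -0.084 (without TPCA-1+TNFα 3) to 0.1003, below 0 also without TNFα 1 or 2. In TMP195+TNFα against TPCA-1+TNFα, Mmp9 ran from -0.556 to 0.327 (without TPCA-1+TNFα 3). In TPCA-1+TNFα against DMSO, Mmp8 ran from -0.543 to 0.0906, above 0 without TPCA-1+TNFα 2 or 4, and Mmp19 from -0.0055 (without TPCA-1+TNFα 3) to 0.179. The cause was not tested.

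Over all genes, TMP195+TNFα against TNFα gave 750 calls, against 1209 with DESeq2, 1699 with the replicate block, 496 without TNFα 1, 485 without TNFα 4 and 446 without TMP195+TNFα 3. TPCA-1+TNFα against TNFα gave 2446 calls, against 3835 with the block and 1551 with the compared groups alone. In the comparisons with TPCA-1+TNFα, where same-numbered libraries were not taken as pairs, the block gave calls for Mmp8 (-0.71, adjusted p = 0.0439) and Timp2 (0.33, adjusted p = 0.0142) against TNFα, Timp2 in TMP195+TNFα against TPCA-1+TNFα (-0.32, adjusted p = 0.0157) and Adam8 against DMSO (0.22, adjusted p = 0.0481). Beyond those and the ones in the report, the block changed no call of these 9 genes. Further gained calls were Mmp8 in TMP195+TNFα against DMSO with the compared groups alone (adjusted p = 0.0311), Mmp14 in TPCA-1+TNFα against DMSO without the filter (adjusted p = 0.0311) and Timp1 in TMP195+TNFα against TPCA-1+TNFα without TMP195+TNFα 1 (adjusted p = 0.0429). Depth limits Timp1, with 2 to 23 reads per library, and Mmp13 in TPCA-1+TNFα, with 10 to 35 reads.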
